A study of Mus musculus with 6 samples.

Results

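The 8 genes described here encode factors by which bone marrow stroma holds and feeds blood-forming cells, or the proteins that mark and program that stroma: Cxcl12, Kitl, Lepr, Vcam1, Il7, Angpt1, Ebf3 and Foxc1. They were chosen by gene symbol, and each had 1 row among the 17457 genes of the expression table. RNA sequencing compared mesenchymal stromal cells (MSCs) from the long bones of female wild type C57BL/6J mice aged 10 weeks, with 2 primary and 4 cultured MSC libraries. Primary MSCs were sorted straight from collagenase-digested bone, after the marrow had been flushed out, as CD45-, Ter119- and CD31- cells positive for Sca-1 and PDGFRα, and several mice were pooled for each library. For cultured MSCs the whole bone digest was grown for 10 days in MesenCult medium, and cells of the same surface phenotype were sorted after a single passage, with each library coming from a pair of mice. The groups therefore differ both in time in culture and in the cells from which the sort was made, and in bulk RNA a change in the cells present and a change in RNA per cell cannot be told apart.

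Hematopoietic stem cells rest beside perivascular stromal cells that carry the leptin receptor, encoded by Lepr. These cells secrete the chemokine CXCL12, which retains stem cells and B cell progenitors in the marrow through CXCR4, and stem cell factor, the product of Kitl, which keeps stem cells alive through the receptor KIT. They also supply interleukin 7 to B cell progenitors and angiopoietin 1 to cells with the receptor TIE2, and the adhesion molecule VCAM1 binds the integrin α4β1 on blood cells. The transcription factors EBF3 and FOXC1 keep the niche open and its factors expressed. The analysis asked whether this set was held, gained or lost between primary and cultured MSCs. These MSCs were sorted on Sca-1 and PDGFRα and not on the leptin receptor.

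The levels are FPKM, that is, fragments scaled by transcript length and by the mapped fragments of the library, and were listed with 2 decimals. The table gives no fragment counts, and the study's methods state the number of clean reads only as a range over the samples, so no counting error was attached to a value. Summed over all genes, FPKM came to 612104 or more in every cultured library and to 571471 or less in both primary ones. The sort marker Ly6a, which encodes Sca-1, was listed at 1117 to 1190 FPKM in cultured and at 1056 and 1711 FPKM in primary MSCs. Pdgfra, the other positive sort marker, was at 35.5 to 43.1 FPKM in cultured and 66.8 and 72.7 FPKM in primary MSCs, and was lower in cultured MSCs (log2FC = -0.82, adjusted p = 0.000486 by limma). Ptprc, which encodes the excluded CD45, did not exceed 0.47 FPKM, and Pecam1, which encodes the excluded CD31, did not exceed 0.62 FPKM. Nothing in the sources used here says that the libraries with the same replicate number were prepared together.

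The genes lie on 7 chromosomes of the GRCm38.p6 assembly. Cxcl12 (gene ID 20315) spans chr6:117168535-117181368 on the plus strand. Kitl (17311) spans chr10:100015615-100100416 and Lepr (16847) spans chr4:101717137-101815352, both on the plus strand. Vcam1 (22329) spans chr3:116110020-116129688 and Il7 (16196) spans chr3:7572028-7613760, both on the minus strand. Angpt1 (11600) spans chr15:42424667-42676977 and Ebf3 (13593) spans chr7:137193671-137322805 on the minus strand, and Foxc1 (17300) spans chr13:31806646-31810635 on the plus strand. The values are sums over whole genes, so isoforms, such as the soluble and membrane-bound forms of stem cell factor or the long and short forms of the leptin receptor, were not separated. Antisense genes are annotated across Vcam1, Il7, Angpt1 and Ebf3, and none of them had a row of its own. Whether strand was used in counting is not given in the sources used here, so reads of these 4 genes and of their antisense partners cannot be told apart.

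Promoter windows from RefSeq on GRCm38.p6 matched 5 of the 8 genes. The last 30 bases before the annotated start are shown because 1 of the 5 genes carries TATAAA there and the others do not. TATAAA gives the letters of the TATA box, and other core promoter motifs were not searched. The bases are written 5′ to 3′ on the strand of the gene, with TATAAA in capitals.
Cxcl12: ccccttgatgagccccgccccgccccgcct
Lepr: ccccgccgcgcagtcacctgagtggccagt
Kitl: agctgTATAAAaagcgctggcggcgcagca
Foxc1: tcgcctgggtgacggatgctcaaaagttca
Ebf3: agcgccgctcccgggggcttcgagttttgg
These stretches lie at chr6:117168505-117168534 for Cxcl12, chr4:101717377-101717406 for Lepr, chr10:100015791-100015820 for Kitl, chr13:31806616-31806645 for Foxc1 and chr7:137314446-137314475 for Ebf3. For Lepr the upstream one of the 2 starts with a window was used. The starts of Kitl, Lepr and Ebf3 lie inside the gene spans given above, which cover transcripts that begin further upstream. In Kitl TATAAA began 25 bases before the start. On either strand it was found in the last 30 bases of 2.04% of all 32851 promoter windows and within 250 bases in 12.4% of them. Over the 250 bases before the start, TATAAA had no match in the other 4 genes. The palindrome read by EBF proteins, TCCC and GGGA with 2 bases between them, was in 0.779% of windows and TAAACA, a forkhead core, in 12.0%, and neither had a match in the 5 genes. A match in these letters is a description and does not show binding. Over 250 bases, G and C made up 64.4% of the Cxcl12 window, 69.2% of the Kitl window and 58.4% of the Lepr window, against a median of 52.4% over all windows.

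Of the 8 genes, 7 reached at least 1 FPKM in at least 2 libraries and were tested with limma on log2(FPKM + 0.1), with adjustment over all 11405 genes that passed this filter. A gene is called higher or lower where the adjusted p was under 0.05. A gene under 1 FPKM throughout 1 group passed the filter through the other group alone, which largely fixed the direction of its change. Among the list genes named below, this holds for Tek, Itga9, Ebf2, Snorc, Dpp4 and the globin genes, which were lower. It also holds for Itgb7, Cdh2, Tslp, Pparg, Foxc2, Egfl7 and the macrophage markers other than Lyz2 and Cd68, which were higher. Counts of called genes include such genes. Among the 7 niche genes 2 were higher in cultured MSCs (Kitl and Angpt1), 1 was lower (Lepr), and 4 did not pass the test (Cxcl12, Vcam1, Il7 and Foxc1). Among all genes tested, 5485 or 48.1% were higher and 2008 or 17.6% were lower, so the shares called among the niche genes were not above these backgrounds. Without primary replicate 1, 4 niche genes were higher, Vcam1 and Foxc1 in addition. The values of the 2 groups did not overlap in 3 of the 7 genes, against 72.8% of all genes tested. The median log2FC was 0.45 for the niche genes and 0.45 for all genes. This split depends on scaling, since 3497 genes were higher and 3189 lower after median ratio scaling, which moved the median of all genes to 0.05, and 3656 were higher and 3039 lower after quantile normalization, which moved it to 0.09. Each log2FC is on the log2(FPKM + 0.1) scale, which understates the change of genes with low values, and changes given as n-fold are ratios of the mean FPKM.

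**Figure D1:**
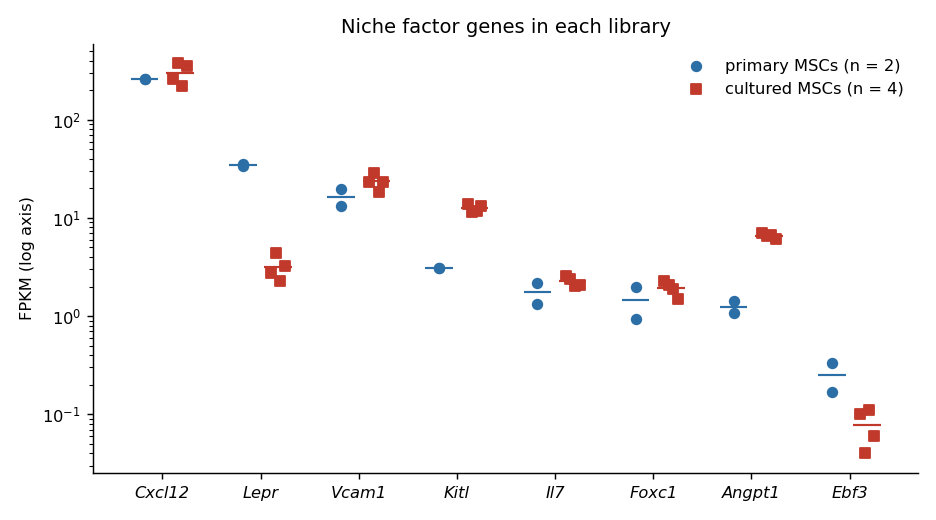
FPKM of the 8 niche factor genes in each library, on a log axis, with 1 point per library (2 primary, 4 cultured MSC libraries) and a bar at each group mean. Lepr is higher in both primary libraries, Kitl and Angpt1 are higher in all 4 cultured libraries, and Cxcl12 is at 221.71 FPKM or more in all 6.

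Among the secreted factors, Cxcl12 was abundant in both groups with overlapping values, while Kitl and Angpt1 were several-fold higher in cultured MSCs and Il7 was low throughout. Cxcl12 was listed at 259.63, 373.91, 221.71 and 352.74 FPKM in cultured replicates 1 to 4 and at 261.12 and 258.11 FPKM in the primary libraries. Both primary values fell inside the range of the cultured ones, with group means of 302 ± 73.0 (SD, n = 4) and 259.6 ± 2.13 (SD, n = 2). The difference did not pass the test (log2FC = 0.19, SE 0.21, 95% interval -0.29 to 0.66, adjusted p = 0.454), and its sign turned under median ratio scaling (-0.21) and quantile normalization (-0.25). In abundance it ranked between 281 and 509 among the genes of a cultured library and at 317 and 304 for primary MSCs. Of the FPKM summed over the 8 genes, Cxcl12 alone gave 80.9% to 87.7% in every library.

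Kitl was listed at 14.02, 11.42, 11.83 and 13.25 FPKM in cultured replicates 1 to 4 and at 3.09 and 3.10 FPKM in primary MSCs. Every cultured value exceeded both primary ones, and the means were 12.6 ± 1.21 (SD, n = 4) and 3.10 ± 0.00707 (SD, n = 2). Kitl was thus 4.08-fold higher in cultured MSCs (log2FC = 1.99, SE 0.15, 95% interval 1.65 to 2.33, adjusted p = 1.34e-05), or 1.54 above the median change of all genes. Of the 11405 genes tested, 1016 rose by more.

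Angpt1, which encodes the ligand that activates TIE2, showed the largest rise of the set. Its values were 7.01, 6.52, 6.78 and 6.06 FPKM in cultured replicates 1 to 4 and 1.42 and 1.08 FPKM in primary MSCs. The groups did not overlap, with means of 6.59 ± 0.408 (SD, n = 4) and 1.25 ± 0.240 (SD, n = 2). This was 5.27-fold higher in cultured MSCs (log2FC = 2.32, SE 0.18, 95% interval 1.90 to 2.74, adjusted p = 1.85e-05), and 777 of the genes tested rose by more.

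Il7, the growth factor of early B and T cells, was at 2.59, 2.39, 2.05 and 2.09 FPKM in cultured replicates 1 to 4 and at 1.32 and 2.17 FPKM in primary MSCs. Primary replicate 2 lay among the cultured values and primary replicate 1 below them. The means were 2.28 ± 0.256 (SD, n = 4) and 1.745 ± 0.601 (SD, n = 2), and the difference did not pass the test (log2FC = 0.40, SE 0.25, 95% interval -0.18 to 0.98, adjusted p = 0.191). Without primary replicate 2 it did (log2FC = 0.74, adjusted p = 0.0244), and it was then measured against a single primary library.

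Of the genes for surface proteins, Lepr was lower in cultured MSCs and Vcam1 did not pass the test. Lepr, the receptor that names the niche stroma, was at 2.77, 4.44, 2.28 and 3.25 FPKM in cultured replicates 1 to 4 and at 33.64 and 35.53 FPKM in primary MSCs. The highest cultured value was far below the lower primary one, and the means were 3.19 ± 0.926 (SD, n = 4) and 34.6 ± 1.34 (SD, n = 2). Lepr was 10.9-fold lower in cultured MSCs (log2FC = -3.44, SE 0.25, 95% interval -4.01 to -2.87, adjusted p = 1.24e-05), and 335 of the genes tested fell by more. Relative to the median change of all genes its log2FC was -3.89.

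Vcam1 was at 23.44, 28.58, 18.50 and 23.48 FPKM in cultured replicates 1 to 4 and at 19.86 and 13.08 FPKM in primary MSCs. Cultured replicate 3 lay below primary replicate 1, so that the groups overlapped, and the means were 23.5 ± 4.12 (SD, n = 4) and 16.5 ± 4.79 (SD, n = 2). Its log2FC of 0.52 (SE 0.21, 95% interval 0.03 to 1.02) did not pass after adjustment over all genes (adjusted p = 0.0590). A single library decided this call, since the adjusted p was 0.0330 without cultured replicate 3 (log2FC = 0.63) and 0.0119 without primary replicate 1 (log2FC = 0.82). In the other direction, median ratio scaling reduced the log2FC to 0.14 (adjusted p = 0.607) and quantile normalization reduced it to 0.11 (adjusted p = 0.682).

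Both transcription factors had low levels. Foxc1 was at 2.26, 2.07, 1.89 and 1.5 FPKM in cultured replicates 1 to 4 and at 1.99 and 0.93 FPKM in primary MSCs. The primary libraries lay on either side of the lowest cultured value, and the means were 1.93 ± 0.324 (SD, n = 4) and 1.46 ± 0.750 (SD, n = 2). The difference did not pass the test (log2FC = 0.45, SE 0.32, 95% interval -0.29 to 1.2, adjusted p = 0.245). It rested on which primary library was kept, being 0.96 (adjusted p = 0.0183) when primary replicate 1 was left out and -0.057 (adjusted p = 0.864) when primary replicate 2 was.

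Ebf3 was listed at 0.10, 0.04, 0.11 and 0.06 FPKM in cultured replicates 1 to 4 and at 0.17 and 0.33 FPKM in primary MSCs. Both primary values were above all cultured ones, but every value was under the filter, and the gene was not tested. With no filter its log2FC was -0.96 (SE 0.27, adjusted p = 0.0362), and the pseudocount of 0.1 in this value is about as large as the levels themselves. Levels this low were recorded in steps of 0.01 FPKM, and the fragments behind them are unknown.

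**Figure D2:**
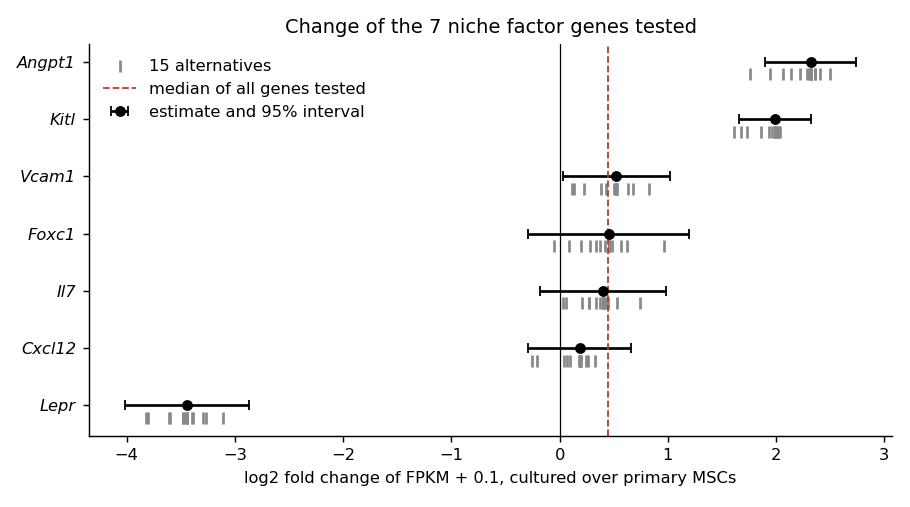
Log2 fold change (cultured over primary MSCs) of the 7 niche factor genes tested, with 95% intervals as bars, the values under the 15 alternative settings as ticks below each bar, and the median of all genes (0.45) as a dashed line. Angpt1, Kitl and Lepr keep their side of 0 in all 15 settings, whereas the ticks of Cxcl12 and Foxc1 lie on both sides.

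The study called a gene differentially expressed where the adjusted p did not exceed 0.01 and the log2FC was 2 or more in size. In the limma fit 2 niche genes passed both thresholds, Lepr and Angpt1, against 14.3% of all genes tested. Angpt1 with a log2FC of 2.32 was just inside and Kitl with 1.99 just outside. Only 1 gene passed with a pseudocount of 1 and after median ratio scaling. With a pseudocount of 0.01 the log2FC of Kitl was 2.02, and 3 genes passed.

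FPKM is per length, so levels can be set beside each other within a library. In primary MSCs the order of mean FPKM was Cxcl12, Lepr, Vcam1, Kitl, Il7, Foxc1, Angpt1 and Ebf3. In cultured MSCs it was Cxcl12, Vcam1, Kitl, Angpt1, Lepr, Il7, Foxc1 and Ebf3. Lepr thus stood at position 2 in primary and at position 5 in cultured MSCs, and Angpt1 at position 7 in primary and position 4 in cultured MSCs. Neighbours whose library values overlapped were Il7, Foxc1 and Angpt1 in primary MSCs and Lepr, Il7 and Foxc1 in cultured MSCs, and their order is not resolved. Among cultured libraries the SD relative to the mean FPKM was smallest for Angpt1 (6.18%) and largest for Ebf3 (42.6%), with 29.1% for Lepr and 24.2% for Cxcl12.

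Ratios between members of the same library do not depend on a scaling factor applied to the whole library. Quantile normalization is not such a factor and can change them. Cxcl12 exceeded Lepr 93.7-, 84.2-, 97.2- and 109-fold in cultured replicates 1 to 4 and 7.76- and 7.26-fold in primary MSCs. Cxcl12 exceeded Kitl 18.5- to 32.7-fold in cultured and 84.5- and 83.3-fold in primary MSCs. The separation was clear in opposite directions for these pairs, and Cxcl12 over Angpt1 went with Kitl, at 32.7 to 58.2 in cultured against 184 and 239 in primary MSCs. Kitl exceeded Lepr 2.57- to 5.19-fold in every cultured library, while the ratio was 0.0919 and 0.0873 in the primary ones. In contrast, the ratios of Cxcl12 to Vcam1, to Il7 and to Foxc1 overlapped between the groups. Relative to Cxcl12, Lepr was thus lower and Kitl and Angpt1 were higher in every cultured library than in either primary one, and no such separation was seen for Vcam1, Il7 and Foxc1. No p-value is given for the ratios, as 4 libraries against 2 cannot reach an exact permutation p under 0.0667.

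**Figure D3:**
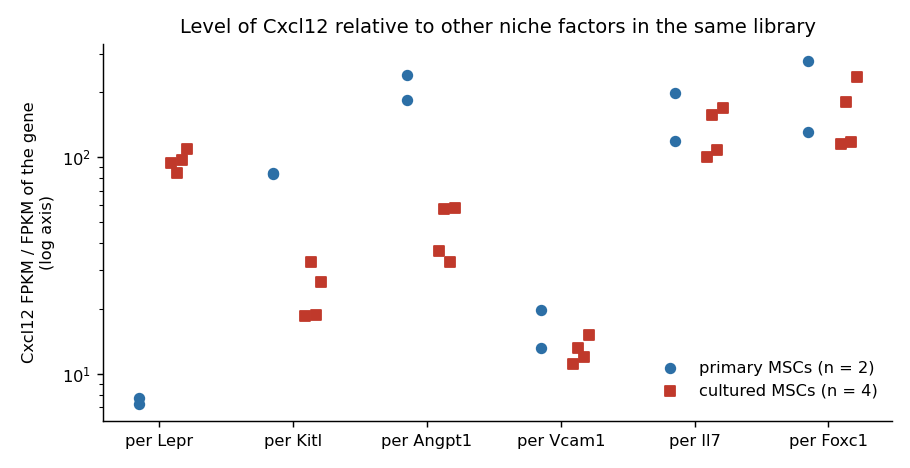
FPKM of Cxcl12 divided by that of 6 other niche factor genes in the same library, on a log axis, with 1 point per library (primary MSCs n = 2, cultured MSCs n = 4). Ratios to Lepr are higher in cultured MSCs (84.2 to 109 against 7.26 and 7.76), ratios to Kitl and Angpt1 are lower, and ratios to Vcam1, Il7 and Foxc1 overlap.

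The partners of these factors were mostly lower in cultured MSCs or at very low levels. Of 13 receptors and binding partners listed with values, 8 were tested, of which 2 were higher and 5 lower, with a median log2FC of -1.37 against 0.45 for all genes. Of all genes tested 48.1% were higher and 17.6% lower. Ackr3, the scavenging receptor that removes CXCL12, was at 38.15, 31.49, 51.21 and 40.33 FPKM in cultured replicates 1 to 4 and at 376.07 and 330.51 FPKM in primary MSCs. That is 8.77-fold lower in cultured MSCs (log2FC = -3.15, SE 0.18, adjusted p = 3.99e-06), with no overlap. Cxcl12 transcripts accordingly exceeded those of Ackr3 4.33- to 11.9-fold in cultured libraries but were below them in both primary ones, with ratios of 0.694 and 0.781.

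Tek, which encodes TIE2, was listed at 0, 0, 0.04 and 0.22 FPKM in cultured replicates 1 to 4 and at 2.71 and 3.70 FPKM in primary MSCs (log2FC = -4.49, adjusted p = 0.000153). The ligand Angpt1 and its receptor gene thus differed between the groups in opposite directions. Tek passed the filter through the primary libraries alone, so its direction was fixed once it was tested. Angpt2, the context-dependent antagonist of the same receptor, did not pass the filter and was looked at after its values were seen. It was at 0.16 to 0.22 FPKM in cultured and 0.34 and 0.58 FPKM in primary MSCs, and Angpt1 exceeded it 27.5- to 42.4-fold in cultured against 4.18- and 1.86-fold in primary MSCs. Of 10 endothelial markers 2 were tested, and they went in opposite directions. Plvap was higher in primary MSCs, at 12.77 and 7.05 FPKM against 0.64 to 1.23 FPKM, and Egfl7 was higher in cultured MSCs, at 4.79 to 5.09 FPKM against 0.70 and 0.03 FPKM. The summed FPKM of the list was 6.53 to 6.86 in cultured and 15.6 and 8.67 in primary MSCs. The part of endothelial cells in the Tek and Angpt2 values was not tested.

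Of the receptor genes that blood cells use for these factors, Cxcr4, Kit, Il7r and Itga4 were near 0 in these stromal cells. Cxcr4 was at 0.38 and 0.17 FPKM in primary MSCs, at 0.04 FPKM in cultured replicate 1 and listed at 0 in the other cultured libraries. Kit did not exceed 0.10 FPKM, Il7r did not exceed 0.11 FPKM and Itga4, the integrin chain that binds VCAM1, did not exceed 0.18 FPKM in any library. Il2rg, which encodes the chain shared by the receptors of interleukin 7 and related cytokines and was named after its values were seen, was at 0.77 to 1.39 FPKM in cultured and 5.38 and 2.45 FPKM in primary MSCs (log2FC = -1.77, adjusted p = 0.00285). Other integrin chains went in both directions. Itgb1 was at 135 to 229 FPKM in cultured and 58.7 and 55.9 FPKM in primary MSCs (log2FC = 1.65, adjusted p = 0.000134), and Itgb7 at 12.1 to 15.1 FPKM in cultured against 0.03 and 0.54 FPKM (log2FC = 5.53, adjusted p = 5.40e-05). Itga9, an alternative VCAM1 partner, was at 0.24 to 0.27 FPKM in cultured and 1.69 and 2.68 FPKM in primary MSCs (log2FC = -2.67, adjusted p = 0.000114). Of the 5 lower partners, Tek and Itga9 no longer passed the filter when either primary library was left out, and were not tested. The count of lower partners then fell by more than these genes.

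Other factors that stroma gives to blood cells moved in both directions. Of 25 such genes, 19 were tested, with 7 higher and 10 lower in cultured MSCs, beside 48.1% and 17.6% of all genes tested, and a median log2FC of -0.82. Csf1, the growth factor of macrophages, was at 293 to 335 FPKM in cultured and 72.3 and 73.6 FPKM in primary MSCs (log2FC = 2.10, adjusted p = 9.80e-07). Il34, the other ligand of the CSF1 receptor, went the other way, at 8.03 to 10.8 FPKM against 36.1 and 52.5 FPKM (log2FC = -2.17, adjusted p = 3.26e-05). Tslp, a cytokine related to interleukin 7, was at 11.8 to 14.3 FPKM in cultured and 0.76 and 0.71 FPKM in primary MSCs (log2FC = 3.99, adjusted p = 7.57e-07), beside the Il7 values, which overlapped. Cdh2, which encodes N-cadherin, was at 9.16 to 13.0 FPKM against 0.36 and 0.53 FPKM (log2FC = 4.35, adjusted p = 2.05e-06). Igf1, the insulin-like growth factor, was lower in cultured MSCs, at 4.82 to 6.13 FPKM against 49.9 and 39.3 FPKM (log2FC = -3.03, adjusted p = 2.62e-06). Il6 was at 0.32 to 1.38 FPKM against 10.8 and 2.55 FPKM (log2FC = -2.71, adjusted p = 0.00613), with the primary libraries far apart.

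Markers of LepR+ stroma other than Lepr itself were lower more often than higher. The MSCs were not sorted on the leptin receptor, and the paper sets its Sca-1 and PDGFRα definition beside others that use LEPR and Nestin. The list therefore follows these genes and does not name the sorted cells. Of 20 markers 18 were tested, of which 8 were lower and 5 higher, beside 17.6% and 48.1% of all genes tested, with a median log2FC of -0.66. Rarres2, which encodes the adipokine chemerin, showed the largest fall of the list, from 263 and 227 FPKM in primary MSCs to between 0.82 and 1.05 FPKM in cultured MSCs (log2FC = -7.90, adjusted p = 7.23e-08). Snorc, a proteoglycan gene also known from cartilage, was at 31.6 and 17.1 FPKM in primary and 0.19 to 0.73 FPKM in cultured MSCs (log2FC = -5.36, adjusted p = 2.55e-05). Adipoq, which encodes adiponectin, was at 8.48 and 1.84 FPKM in primary and 0.09 to 1.06 FPKM in cultured MSCs (log2FC = -3.39, adjusted p = 0.00606), a call that was lost without primary replicate 1. Grem1, an antagonist of bone morphogenetic proteins, was at 35.2 to 64.9 FPKM in cultured and 7.06 and 0.30 FPKM in primary MSCs (log2FC = 4.93, adjusted p = 0.00204). Kng2 and Kng1, 2 kininogen genes of similar sequence whose reads may be shared, had log2FC of 1.39 and 1.16, and both calls were lost in some settings. The 5 higher calls fell to 2 after median ratio scaling and after quantile normalization.

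Among the other transcription factors of niche stroma, Ebf1 and Ebf2, paralogs of Ebf3, were lower in cultured MSCs. Of 15 genes 14 were tested, with 4 higher and 4 lower, beside 48.1% and 17.6% of all genes tested, and a median log2FC of -0.04. Ebf2 was at 0.26, 0.31, 0.40 and 0.24 FPKM in cultured replicates 1 to 4 and at 7.32 and 10.21 FPKM in primary MSCs (log2FC = -4.46, adjusted p = 6.48e-06). Ebf1, the most abundant of the 3 EBF genes listed, was at 5.65 to 7.51 FPKM against 30.2 and 25.5 FPKM (log2FC = -2.04, adjusted p = 1.71e-05). Ebf1 exceeded Ebf2 14.1- to 28.9-fold in cultured and 4.12- and 2.50-fold in primary MSCs. Ebf2 passed the filter through primary MSCs alone, which largely fixed its direction. The cultured ratios rest on Ebf2 values of 0.24 to 0.40 FPKM, and the fragments behind these are unknown. The untested Ebf3 values were, like those of Ebf1 and Ebf2, lower in every cultured library than in either primary one. Sp7, which encodes the osteoblast factor osterix, was at 2.06 to 2.74 FPKM against 5.21 and 3.64 FPKM (log2FC = -0.91, adjusted p = 0.00753).

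Pparg, the regulator of fat cell formation, was at 10.7 to 12.5 FPKM in cultured and 0.30 and 0.06 FPKM in primary MSCs (log2FC = 5.50, adjusted p = 5.70e-06). Runx2, the regulator of bone formation, was at 7 to 8.34 FPKM against 2.83 and 1.97 FPKM (log2FC = 1.63, adjusted p = 0.000149). Foxc2, the paralog of Foxc1, was at 0.27, 1.48, 4.05 and 3.50 FPKM in cultured replicates 1 to 4 and at 0.08 and 0.04 FPKM in primary MSCs (log2FC = 3.44, adjusted p = 0.00968). Its cultured libraries were spread widely, and the call was lost with no filter. The 4 lower calls among the transcription factors became 7 after median ratio scaling.

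**Figure D4:**
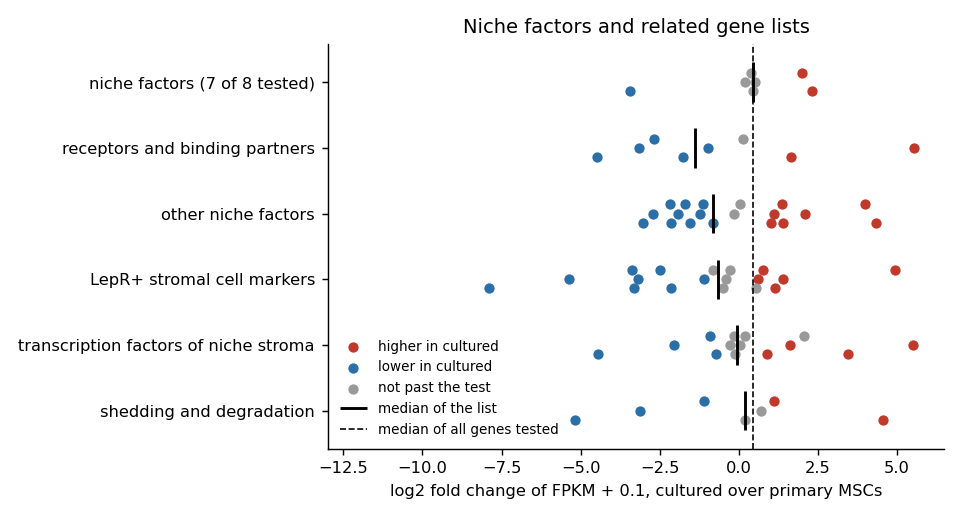
Log2 fold change (cultured over primary MSCs) of the tested genes in the niche factor set and in 5 related lists, with 1 point per gene coloured by call, a black bar at the median of each list and a dashed line at the median of all genes tested (0.45). The niche factors have their median on the dashed line, and the receptors and binding partners have the list median furthest to its left, at -1.37.

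Enzymes that cut or shed these factors were measured as well, since CXCL12 is inactivated by the peptidase DPP4 and by matrix metalloproteinases. Of 10 such genes 7 were tested, of which 2 were higher and 3 lower, beside 48.1% and 17.6% of all genes tested, with a median log2FC of 0.19. Dpp4 was at 0.47 to 0.71 FPKM in cultured and 20.7 and 28.7 FPKM in primary MSCs (log2FC = -5.18, adjusted p = 1.70e-06). Mmp2, a gelatinase that cleaves CXCL12, was at 102 to 119 FPKM against 1006 and 930 FPKM (log2FC = -3.13, adjusted p = 2.88e-07). Ctsk, which encodes cathepsin K, was at 252 to 279 FPKM against 632 and 509 FPKM (log2FC = -1.11, adjusted p = 6.07e-05). Adam8, a membrane metalloproteinase gene, was higher in cultured MSCs, at 22.4 to 29.0 FPKM against 0.92 and 1.00 FPKM (log2FC = 4.57, adjusted p = 4.06e-07), and so was the general sheddase gene Adam10, at 34.0 to 35.7 FPKM against 15.6 and 16.6 FPKM (log2FC = 1.10, adjusted p = 3.40e-05). Without primary replicate 1 the genes called higher numbered 4.

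For each tested member the genes with the most similar profile over the 6 libraries were found by the root mean square difference of centred log2 values, over all genes tested. Kitl was closest to Gatb (0.0681) and Fndc3a (0.0681), and Angpt1 to Eno1 (0.0633) and Fam241b (0.0798). Lepr was closest to Fam167a (0.107) and Cpz (0.116), and Cxcl12 to Gm52435 (0.111) and Insr (0.129). Fam167a and Cpz were under 1 FPKM in every cultured library, and Fam241b was in both primary ones. Each thus passed the filter through 1 group alone. By mean FPKM Cpz was 21.0-fold lower in cultured MSCs and Lepr 10.9-fold, so the likeness of Cpz depends on the pseudocount of 0.1. Vcam1 was closest to Med17 (0.0769) and Igsf10 (0.0910), Il7 to Abt1 (0.0439) and Zfp955a (0.0492), and Foxc1 to Clint1 (0.0705). No member had another member among its closest genes.

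Markers of other cell types also differed between the groups, and their part in the niche factor values was not tested. The shares of all genes tested are again 48.1% higher and 17.6% lower. Of 12 macrophage and monocyte markers 9 were tested and all 9 were higher in cultured MSCs, with a summed FPKM of 86.9 to 303 against 15.4 and 22.3. Csf1r, Adgre1, C1qa, C1qb, C1qc, Mrc1 and Tyrobp were under 1 FPKM in both primary libraries. These genes passed the filter through the cultured group alone, which largely fixed their direction. Lyz2 and Cd68 were the most abundant of the tested markers, and both exceeded 1 FPKM in primary MSCs as well. Lyz2 was at 180, 221, 60.6 and 175 FPKM in cultured replicates 1 to 4, and Cd68 at 10.8 to 21.2 FPKM. Ptprc, a defining marker of that list, was at 0.12 to 0.47 FPKM in cultured and at 0 and 0.02 FPKM in primary MSCs. Of 8 red blood cell markers 5 were tested and 4 were lower, with sums of 17.2 to 19.1 FPKM in cultured against 240 and 151 FPKM in primary MSCs, and Tfrc, the transferrin receptor gene that dividing cells of many types express, was the 1 that was higher. Tfrc made up nearly all of the cultured sums, at 16.6 to 18.9 FPKM against 1.29 and 1.36 FPKM in primary MSCs (log2FC = 3.66, adjusted p = 5.41e-07). It was named after its values were seen. Hba-a1 and Hba-a2, near-identical α-globin genes whose reads may be shared, did not exceed 0.46 FPKM in any cultured library. The 4 lower genes, all globin genes, were under 1 FPKM in every cultured library and passed the filter through primary MSCs alone.

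All 5 tested markers of osteoblasts and osteocytes were lower in cultured MSCs, with sums of 2647 to 3394 FPKM against 7977 and 6588 FPKM. Col1a1 made up most of these sums, and Ibsp, the bone sialoprotein gene, was at 7.22 to 9.42 FPKM in cultured and 1032 and 411 FPKM in primary MSCs. Of 10 pericyte and smooth muscle markers 5 were tested, with 3 higher and 1 lower and sums of 356 to 394 FPKM against 87.6 and 80.6 FPKM. Acta2 led them at 281 to 316 FPKM in cultured and 27.3 and 13.1 FPKM in primary MSCs, and Cspg4, at 26.4 to 44.8 and 25.4 and 47.0 FPKM, did not pass the test. Of 9 chondrocyte markers 8 were tested, with 2 higher and 3 lower, led by Comp (log2FC = -2.77) and Col2a1 (log2FC = 2.62).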

How the data were processed

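RNA from 4 cultured and 2 primary MSC libraries was made into cDNA with SMART-Seq v4 and sequenced. The authors cleaned reads with SOAPnuke. The tools that the authors' processing notes name are HISAT2 2.0.4, Bowtie2 2.2.5, RSEM 1.2.8 and, for their own comparison, DESeq2, with the build GRCm38.p6. The authors deposited 1 table of FPKM values for 17457 genes, with 2 decimals. FPKM removes differences in depth and transcript length but keeps no counts, so a count test was not possible. A further deposited column, the authors' own log2 ratio of the groups, was not used.

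Values were tested with limma 3.58.1 in R 4.3.3 on log2(FPKM + 0.1), for the 11405 genes that reached 1 FPKM in 2 or more libraries, in a linear model of the 2 groups with a variance trend and 4 residual degrees of freedom. P values were adjusted by the Benjamini-Hochberg method over all genes tested, and all p values in the text are from this test. The script was tested on simulated data. Libraries came from separate mice or pools of mice. Gene IDs were matched to RefSeq for GRCm38.p6 (17406 of 17457), and overlapping genes were taken from GENCODE M21.

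The members and lists were chosen with earlier results of these data known. Named genes were all 8 members, for each related list the 3 largest rises and 3 largest falls among called genes and the direct receptors of members, the 2 most abundant genes of each of 6 cell type lists, and the 2 genes most similar to each tested member, of which 1 is not reported here. Lep, Mepe and Sost had no row. In 15 alternatives the pseudocount was 0.01 or 1, the filter was dropped or set on the mean, values were scaled by median ratios, by quantiles or to TPM, the trend was left out, replicate numbers were blocked, or 1 library was omitted. A lone primary library was taken to be as variable as the cultured group. Figures were drawn with matplotlib 3.10.9.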

Additional observations from a re-analysis of the deposited data

Results flagged for a closer look

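In the 4 cultured libraries, 66 genes were checked for a library that stood far from the other cultured ones. They were the 8 members, the genes picked by rule from the related and cell type lists, and the genes most similar to tested members. By Dixon's test at the 95% level 5 genes were found. Chance flags about 1 in 20 groups at this level. That rate assumes continuous, normally distributed values. Where all other values are listed at 0, as for Cxcr4 and Hba-a2, the gene is flagged whatever the size of its value. The Il7r and Itga4 values are also low and were listed in steps of 0.01 FPKM. Cxcr4 was at 0.04 FPKM in cultured replicate 1 and listed at 0 in the others. Il7r was at 0.11 FPKM in cultured replicate 2 and at 0 to 0.01 FPKM in the others. Itga4 was at 0.18 FPKM in cultured replicate 4, against 0.12 to 0.13 FPKM. Col1a1, the main collagen of bone, was at 2615.06 FPKM in cultured replicate 1, against 3270.54 to 3360.58 FPKM. Hba-a2, an α-globin gene, was at 0.18 FPKM in cultured replicate 3 and listed at 0 in the others. None of the 8 niche factor genes was among the 5.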

How the results depend on the processing

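Kitl, Lepr and Angpt1 kept their direction and their call under all 15 alternatives, with log2FC of 1.61 to 2.04 for Kitl, -3.83 to -3.11 for Lepr and 1.76 to 2.50 for Angpt1. The number of niche genes called lower was 2 with no filter, where Ebf3 was added. The number called higher was 2 to 4 when single libraries were left out, with Vcam1 and Foxc1 added without primary replicate 1. The number past both of the study's thresholds was 3 with a pseudocount of 0.01, 1 with a pseudocount of 1 and 1 after median ratio scaling. It was 2 to 3 when single libraries were left out. Cxcl12 turned to -0.21 after median ratio scaling and to -0.25 after quantile normalization. Leaving out single libraries moved Vcam1 between 0.22 and 0.82, Il7 between 0.062 and 0.74 and Foxc1 between -0.057 and 0.96. Among the related lists, partners called lower ranged from 2 to 5 and shedding genes called higher from 2 to 4 when libraries were left out. Called LepR+ markers that were higher numbered 3 with no filter, 2 after median ratio scaling and 2 after quantile normalization, and transcription factors called lower numbered 7 after median ratio scaling. Without either primary library Tek and Itga9 no longer passed the filter and were not tested, which lowered the count of partners. The cause of the other moves was not tested.

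The replicate number as a block gave Vcam1 a log2FC of 0.68 (adjusted p = 0.0458). It took away the call of Sp7. Deviations of same-numbered libraries from their group means correlated across genes at r = 0.121 for replicate 1 and 0.0519 for replicate 2. These libraries share only a number, and the block rests on 2 pairs. FPKM values hold no counts, and with 2 primary libraries an exact permutation test cannot give a p under 0.0667.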

Other observations

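The following was noticed after the values were seen and is a description without a test. Among the cultured libraries Cxcl12, Lepr and Vcam1 had the same order of FPKM, with replicate 2 highest, then replicates 4, 1 and 3. The order was taken from Cxcl12, so Cxcl12 is by construction 1 of the 3 among the 7 tested niche genes that have it. The same order was found in 460 of all 11405 genes tested (4.03%). It was also found in 4 of 18 tested markers of LepR+ stroma (Adipoq, Apoe, Lpl and Fbln5) and in 3 of 9 macrophage markers (C1qb, Adgre1 and Mrc1). Cultured replicate 3 was the lowest of its group for 4 of the 7 niche genes, for 10 of the 18 LepR+ markers and for 8 of the 9 macrophage markers, against 27.7% of all genes tested. The genes of a library share its RNA and its scaling, so they are not independent points, and the part of the cells present in each library was not tested.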
